A study of Brassica carinata and Brassica napus and Brassica carinata x Brassica napus with 3 samples.

Results

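Floral buds of the 2 parents of an interspecific Brassica hybrid, B. carinata and B. napus, were compared here by RNA-seq, gene group by gene group, outside the pollen wall and late pollen genes. The B. carinata library came from cultivar W29 and the B. napus library from cultivar Zhongshuang 11, both taken as floral buds at initial flowering, and neither label names a treatment. These are 2 of the 3 libraries of the study. The hybrid library was not used here. Sequences were grouped by their best Swiss-Prot match into protein units, and a unit was described where its summed level reached 5 RPKM (reads per kilobase of sequence and per 1000000 reads of the library) in either parent. This left 8460 of 10526 units, of which 7734 carried an Arabidopsis entry and 726 an entry of another species. The labels name 1 library for each species, and neither how many plants it held nor which bud sizes. Every difference below is therefore between 2 libraries, with no replicate check and no test, and a species difference cannot be told apart from a difference in bud age, growth or library.

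Both species are allotetraploids that arose by joining diploid genomes. B. carinata holds the B and C genomes, B. napus the A and C genomes, so the C genome is shared and the other genome is not. A gene is thus expected in several copies in each species, and each copy can carry letters that the other species lacks. Floral buds mix sepals, petals, carpels and anthers. Anthers pass through meiosis, a phase when the tapetum feeds the young pollen, and a phase when the pollen fills, so the age of the buds sets which anther RNA is present.

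Counted reads came to 28.1 M for B. carinata and 28.2 M for B. napus. Of these, 61.3% in B. carinata and 63.8% in B. napus lay on the kept units. Where a unit has no read, its level may still reach 0.107 RPM (reads per 1000000 reads) in B. carinata or 0.106 RPM in B. napus. Floral organ genes were present in both: AP3, a petal and stamen identity factor, had 350.0 RPKM in B. carinata against 195.7 RPKM in B. napus, and PI, its partner, had 291.3 RPKM in B. carinata against 191.1 RPKM in B. napus. The 3 tapetum markers were higher in B. carinata, for example A9 at 3665 RPKM in B. carinata against 729.1 RPKM in B. napus. All 5 mature pollen markers were lower in B. carinata, between 0.2449 and 2.777 RPKM there and between 21.99 and 381.7 RPKM in B. napus. Of 7 entries that mark green tissue, 6 were higher in B. carinata, for example LHCB1.3 at 812.3 RPKM in B. carinata against 238.9 RPKM in B. napus. CAB1 of the white mustard entry was level, at 1414 RPKM in B. carinata against 1507 RPKM in B. napus. Most of these entries are of RBCS or CAB1, and the maize entries of both had no read in B. napus. The whole light-harvesting and photosystem family, given further on, summed to 12730 RPKM in B. carinata against 14300 RPKM in B. napus. The part of these stage and tissue differences in the gene groups below was not tested. In such bulk tissue, fewer cells of a type and less RNA per cell cannot be told apart.

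Most units stood at similar levels in both species. The log2 ratio of B. carinata over B. napus, after adding 1 RPKM to each, lay within 2-fold for 5832 units (68.9%). By the 2-fold line, 1548 units were higher in B. carinata and 1080 lower. In all, 31.1% of the units were 2-fold apart, 18.3% higher and 12.8% lower, and these shares are the background for every gene group. The median log2 ratio was 0.07, and the 5th and 95th percentiles were -1.88 and 2.64. At the line of 16-fold, 108 units were higher and 92 lower in B. carinata. The line at 2-fold divides a continuum, with 66 units within 0.02 log2 units inside it and 64 within 0.02 outside it. The filter had the pentatricopeptide protein PCMP-E33 just inside, at 2.376 RPKM in B. carinata against 5.005 RPKM in B. napus, and the transporter ABCG40 just outside, at 1.114 RPKM in B. carinata against 4.996 RPKM in B. napus.

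The excess of higher over lower units was not a stable count. Higher units were 58.9% of those apart, but 50.1% when RPM was summed in place of RPKM, 46.6% when each unit was read from its sequence of highest mean, and 39.6% over sequences with reads in both species. Scaling the libraries by TMM (trimmed mean of M-values) factors moved the median log2 ratio to 0.35 and the share of higher units to 73.2%. Gene groups are therefore read against the background under the same setting, and counts of a group are by summed RPKM unless another setting is named. Where the balance of higher and lower units in a group turned under some of the 15 alternatives, this is said beside its count. This balance is of counts alone, so it can turn together with the background of a setting.

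**Figure D1:**
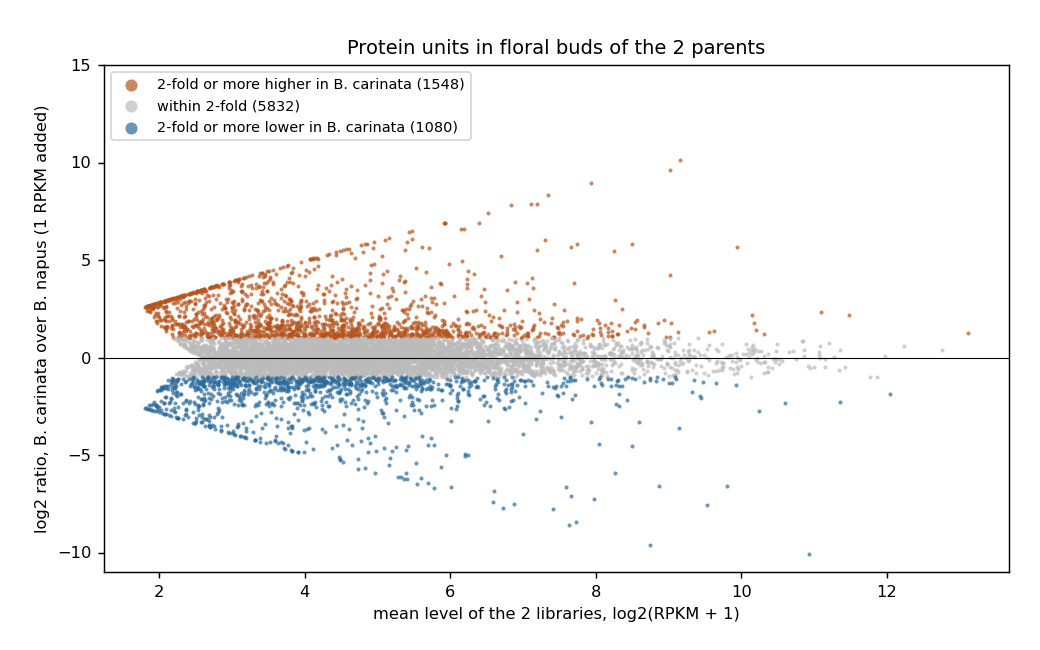
Log2 ratio of B. carinata over B. napus (1 RPKM added, vertical axis) against the mean level of both libraries (log2 of RPKM plus 1, horizontal axis) for the 8460 kept units. Orange points are the 1548 units at least 2-fold higher in B. carinata, blue points the 1080 at least 2-fold lower and grey points the 5832 within 2-fold; the straight outer edges are units with no or almost no reads in the other species.

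The make-up of the units differed between the species. The kept units held 59470 assembled sequences, of which 39857 had reads in both species, 11189 in B. carinata only and 5034 in B. napus only. Sequences read in B. carinata only took 8.93% of the B. carinata reads of these units, against 2.06% of the B. napus reads on sequences read in B. napus only. Among units higher in B. carinata, the median share of B. carinata reads on such sequences was 19.1%, against 1.91% among units within 2-fold and 0 among units lower. These sequences were short, with median lengths of 436 bases for B. carinata only and 493 bases for B. napus only, against 1014 bases for sequences read in both. RPKM divides by length, so a short sequence adds more to a summed RPKM than a long one with the same reads. A unit also stands for 1 Swiss-Prot entry and not for a gene: entries of species other than Arabidopsis were 2-fold apart in 51.8% of cases, against 29.1% for Arabidopsis entries.

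The 12 highest ratios among units with a named product and at least 20 RPKM were mostly of this kind. Of these 12 units, 11 carried an entry of another species and 10 consisted of 1 sequence. MT25, a metallothionein that binds metal ions, led with 1040 RPKM in B. carinata against 0.3268 RPKM in B. napus, or 3183 times the reads per library total (95% interval 1462 to 8675, for counting error only). RPS14C, a protein of the small ribosomal subunit, had 489.5 RPKM in B. carinata against no read in B. napus, so that it was at least 1507-fold higher by reads with a count of 0 set to 3. Summing both S14 entries gave 1271 RPKM in B. carinata against 909.9 RPKM in B. napus, within 2-fold.

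Summing entries of the same product name, matched without its last number or letter, brought several others of that group within 2-fold, though not all. PEC-2, a thioredoxin H, had 323.4 RPKM in B. carinata against no read in B. napus, but the 4 thioredoxin H entries together had 709.3 RPKM in B. carinata against 394.5 RPKM in B. napus. ACL1.A2, an acyl carrier protein of fatty acid synthesis, had 290.4 RPKM in B. carinata against 0.227 RPKM in B. napus, and its 12 product entries 2222 RPKM in B. carinata against 1352 RPKM in B. napus. RAN, a GTPase of nuclear transport, had 181.5 RPKM in B. carinata against 0.0614 RPKM in B. napus, whereas the entry RAN2 had 221.8 RPKM in B. carinata against 223.1 RPKM in B. napus. Of the 11 units in the group that are not plastid genes, 4 stayed at least 2-fold higher after entries of the same product name were summed. Those were MT25, RAN and PARC, each of which had no other entry under its exact product name, and ENO1, a glycolytic enolase whose 4 entries summed to 152.5 RPKM in B. carinata against 37.46 RPKM in B. napus. The highest ratio of all belonged to At3g28270, whose entry names no product and which was noted after its values were seen, with 1137 RPKM in B. carinata against no read in B. napus.

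At the other end, 6 of the 12 lowest ratios were plastid genes, described further on. NAP1, the seed storage protein napin, had 0.2937 RPKM in B. carinata against 232.7 RPKM in B. napus, or 0.000789 times the reads per library total (interval 0.000215 to 0.00202). OLE1, an almond entry for an oleosin that coats oil bodies, had 0.0991 RPKM in B. carinata against 82.96 RPKM in B. napus. FHT, a parsley entry for the flavonoid enzyme flavanone 3-dioxygenase, had 0.2033 RPKM in B. carinata against 101.5 RPKM in B. napus. Another entry of that enzyme, from stock (Matthiola), had 204.1 RPKM in B. carinata against 126.9 RPKM in B. napus, within 2-fold and the other way. BGAL, a beta-galactosidase of the cell wall, had 0.0393 RPKM in B. carinata against 90.94 RPKM in B. napus, but its 17 product entries had 328.5 RPKM in B. carinata against 438.2 RPKM in B. napus. VHA-G3, a subunit of the vacuolar proton pump, had 0.0713 RPKM in B. carinata against 80.18 RPKM in B. napus. The 13 entries that share its product name without the last letter and number can be other subunits of the pump. Together they had 645.7 RPKM in B. carinata against 1136 RPKM in B. napus, which is not a value of subunit G3. The 6 oleosin entries together, which include oleosins of the Brassica tapetum, had 1107 RPKM in B. carinata against 2594 RPKM in B. napus.

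**Figure D2:**
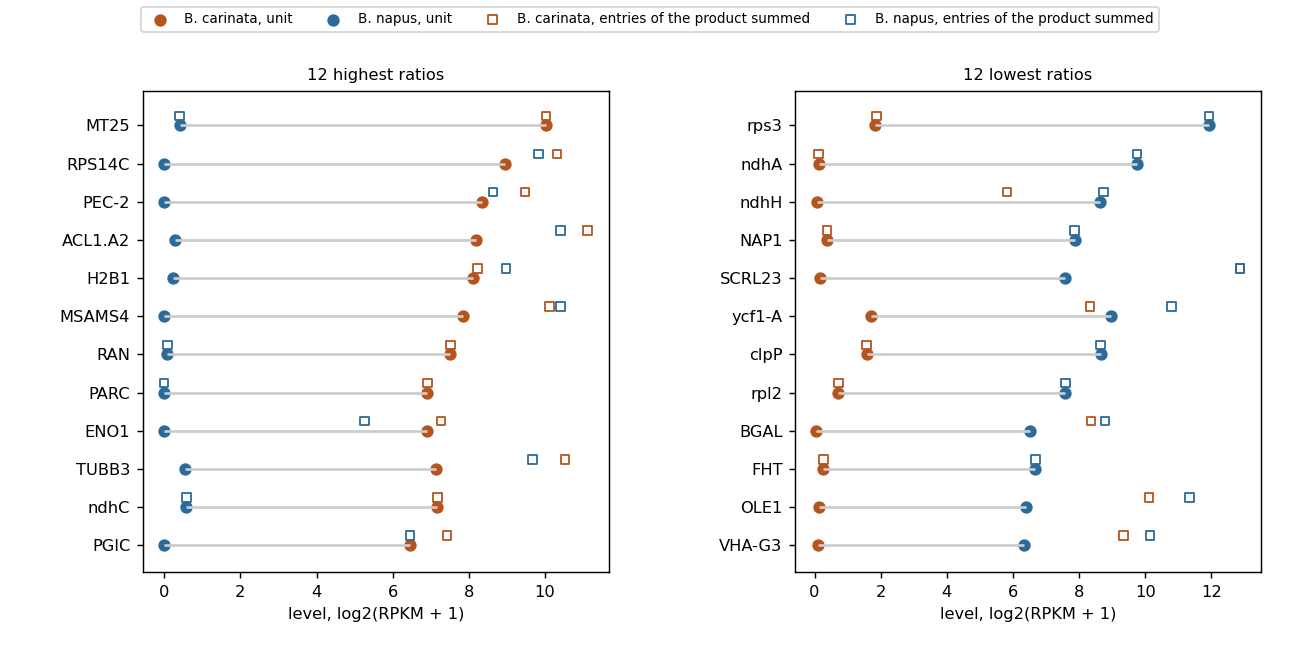
Levels (log2 of RPKM plus 1) of the 12 units with the highest and the 12 with the lowest ratio of B. carinata over B. napus. Filled circles are the unit. Open squares are the sum over all entries that share the product name without its last number or letter (for plastid genes, of the same gene). For VHA-G3 these can be other subunits. In RPS14C, PEC-2, H2B1 and BGAL the squares of both species lie close together while the circles are far apart.

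Among the 10 most abundant units the species were closer. LTP12, a lipid-transfer protein known from the Arabidopsis tapetum, was the most abundant, with 12450 RPKM in B. carinata against 5243 RPKM in B. napus. A4, the elongation factor 1-alpha of protein synthesis, had 7915 RPKM in B. carinata against 5976 RPKM in B. napus. MT2, a type 2 metallothionein of a B. rapa entry, had 1823 RPKM in B. carinata against 6606 RPKM in B. napus, the opposite of MT25. PDF2.2, a plant defensin, had 4715 RPKM in B. carinata against 1023 RPKM in B. napus. LTP6, another lipid-transfer protein, had 4128 RPKM in B. carinata against 3951 RPKM in B. napus, and histone H4 had 5779 RPKM in B. carinata against 3878 RPKM in B. napus. Of these 10 units, LTP12 and PDF2.2 were at least 2-fold higher, MT2 at least 2-fold lower and the others within 2-fold.

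Plastid genes, which encode parts of the photosystems, the plastid ribosome and the plastid RNA polymerase, were an uneven group. After entries of different species were merged, 33 genes were kept, of which 9 were higher in B. carinata by the same 2-fold line and 12 lower, against a background of 18.3% and 12.8%. Their summed level was 3486 RPKM in B. carinata against 10630 RPKM in B. napus, and they held 1.19% of the B. carinata reads and 2.79% of the B. napus reads. The gene rps3, for a ribosomal protein, made up much of the gap, with 2.661 RPKM in B. carinata against 3890 RPKM in B. napus. The gene ndhA, for a subunit of the plastid NAD(P)H dehydrogenase, had 0.0888 RPKM in B. carinata against 863.7 RPKM in B. napus. For psbB, a core antenna protein of photosystem II, the values were 18.48 RPKM in B. carinata against 608.3 RPKM in B. napus.

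Other plastid genes lay the opposite way or level. The gene rpoA, for a subunit of the plastid RNA polymerase, had 709.4 RPKM in B. carinata against 11.62 RPKM in B. napus. The gene matK, for the plastid intron maturase, had 596.3 RPKM in B. carinata against 87.87 RPKM in B. napus, and ndhK, for another dehydrogenase subunit, had 69.37 RPKM in B. carinata against 0.0367 RPKM in B. napus. Subunits of the same complex thus differed in opposite directions, as ndhA and ndhK did. In contrast psaA, for a photosystem I core protein, had 29.09 RPKM in B. carinata against 30.55 RPKM in B. napus, and accD, for an acetyl-CoA carboxylase subunit, had 13.23 RPKM in B. carinata against 12.48 RPKM in B. napus. The large subunit of Rubisco, rbcL, had 182.9 RPKM in B. carinata against 419.1 RPKM in B. napus. Each assembled sequence carries only its best match as a name, and plastid genes lie in shared transcripts, so a name can stand for its neighbours as well. Whether the gene names were split differently between the species was not tested.

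**Figure D3:**
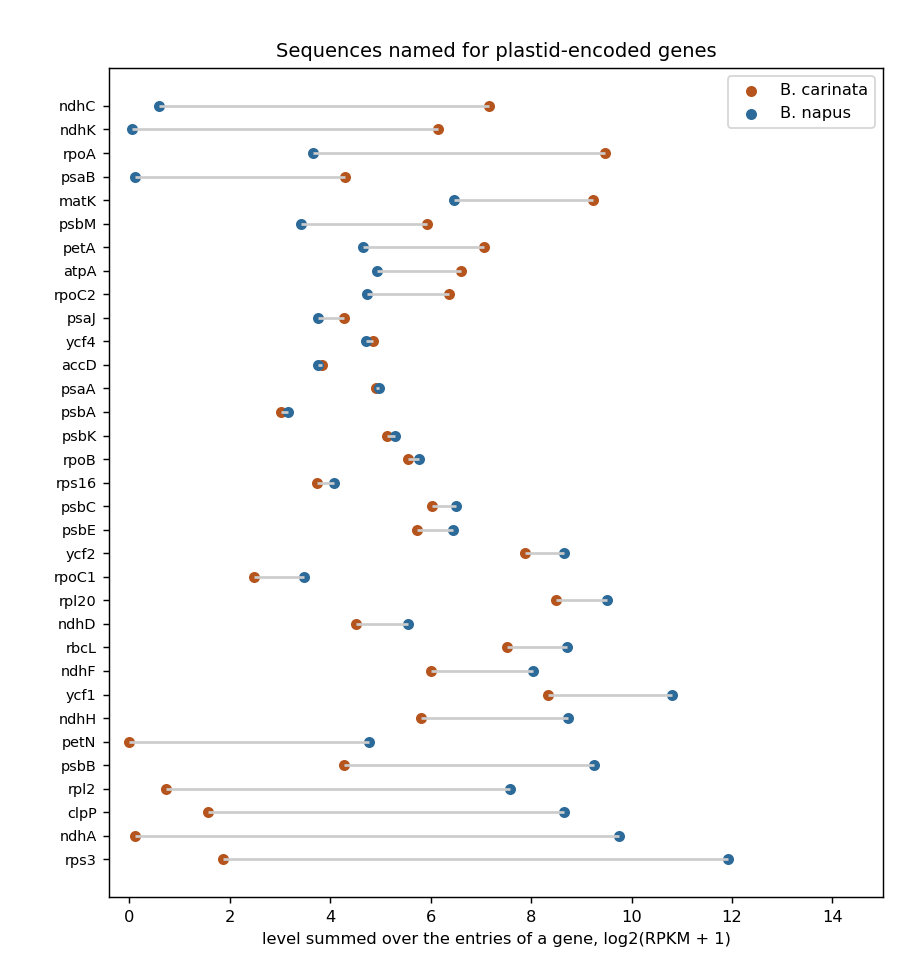
Summed level (log2 of RPKM plus 1) of the 33 kept plastid-encoded genes in B. carinata (orange) and B. napus (blue), ordered by their ratio. At the top ndhC, ndhK and rpoA are far higher in B. carinata, at the bottom rps3, ndhA and clpP far lower, with accD and psaA level between them.

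Units named for mitochondrial genes leaned one way. Of 28 kept, 11 (39.3%) were higher in B. carinata and 2 (7.14%) lower, with a median log2 ratio of 0.50. Unlike the plastid genes, entries of different species were not merged here, so a gene can count more than once, as COX3 does. ND4, a subunit of respiratory complex I, had 116.5 RPKM in B. carinata against 39.69 RPKM in B. napus. COX3, a cytochrome c oxidase subunit of the Arabidopsis entry, had 30.17 RPKM in B. carinata against 6.909 RPKM in B. napus. ND2, also of complex I, was lower, with 4.913 RPKM in B. carinata against 12.63 RPKM in B. napus. The median stayed above that of all units in all 15 alternative settings. Proteins of the organelle ribosomes, nuclear and plastid entries together, had 10 of 47 (21.3%) lower and 4 (8.51%) higher. RPS31, a nuclear gene for a plastid ribosomal protein, had 409.3 RPKM in B. carinata against 109 RPKM in B. napus.

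F-box and kelch proteins leaned to B. carinata. These proteins, which choose targets for ubiquitin ligases, had 117 of 273 kept units (42.9%) on the higher side in B. carinata and 10 (3.66%) lower, with a median log2 ratio of 0.71. At1g25211 was the extreme, with 395.2 RPKM in B. carinata against 6.787 RPKM in B. napus, or 60.6 times the reads per library total (interval 53.1 to 69.5). At4g19940 had 26.38 RPKM in B. carinata against 0.1478 RPKM in B. napus. Among the few that lay the other way, At3g08750 had 29.08 RPKM in B. carinata against 182.9 RPKM in B. napus. The share of higher units was above the background of its own setting in all 15 alternatives, but it was smaller over sequences with reads in both species, at 19.5% against 11.3% of all units. Of the B. carinata reads of these units, 22% lay on sequences read in B. carinata only.

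Other parts of the breakdown machinery leaned the same way more weakly, with shares of higher units near the background or below it. For ubiquitin enzymes and proteasome subunits the median log2 ratios were 0.28 and 0.22. Both medians lay above that of all units, and both shares of lower units below the background, in all 15 alternatives. Of 180 ubiquitin ligases and conjugating enzymes, 36 were higher and 15 lower. Over sequences read in both species 22 of 168 (13.1%) were higher and 24 (14.3%) lower, beside 11.3% and 17.2% of all units. ARI13, a RING-type ligase, had 63.26 RPKM in B. carinata against 2.283 RPKM in B. napus. Of 34 proteasome subunits, 5 (14.7%) were higher and none lower. From the sequence of highest mean per unit 6 of 33 (18.2%) were higher and 10 (30.3%) lower, beside 29.2% and 33.6% of all units. PAD2, an alpha subunit of the proteasome core, had 152.6 RPKM in B. carinata against 6.815 RPKM in B. napus.

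Chromatin proteins also leaned to B. carinata. Of 29 proteins of DNA methylation and small RNAs, 12 (41.4%) were higher by 2-fold or more and none lower, with a median log2 ratio of 0.81. CMT3, a methyltransferase for cytosines outside CG sites, had 19.06 RPKM in B. carinata against 1.655 RPKM in B. napus, or 19.2 times the reads per library total (interval 11.0 to 36.6). DRM2, which adds methyl groups where small RNAs guide it, had 33.44 RPKM in B. carinata against 10.19 RPKM in B. napus, or 3.68 times the reads per library total (interval 3.30 to 4.11). For some members the reads were much closer than the RPKM. DMT1, the maintenance methyltransferase, had 79.97 RPKM in B. carinata against 28.4 RPKM in B. napus, but a read ratio of only 1.27 (interval 1.20 to 1.34). DCL3, which cuts the guiding small RNAs, had 38.12 RPKM in B. carinata against 17.81 RPKM in B. napus, with a read ratio of 1.05 (interval 0.98 to 1.12). AGO1 and AGO4, argonautes that carry small RNAs, were level, AGO1 at 110.4 RPKM in B. carinata against 118.8 RPKM in B. napus and AGO4 at 215.8 RPKM in B. carinata against 217.4 RPKM in B. napus. With summed RPM, 7 of 28 of these proteins were higher and none lower.

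Histone-modifying enzymes had 15 of 60 units higher in B. carinata and 2 lower. ASHH2, a histone H3 methyltransferase that keeps genes active, had 97.4 RPKM in B. carinata against 10.78 RPKM in B. napus. HDT1, a plant histone deacetylase, had 124.4 RPKM in B. carinata against 23.11 RPKM in B. napus. MEA, a Polycomb methyltransferase known from the Arabidopsis endosperm, was lower, with 1.415 RPKM in B. carinata against 9.647 RPKM in B. napus. The core and linker histones themselves were near the background, with 7 higher and 5 lower of 33, which turned in 1 alternative. Splicing factors followed the enzymes, with 11 of 31 (35.5%) higher and 1 lower. RSZ22, a serine and arginine-rich splicing protein, had 87.42 RPKM in B. carinata against 19.96 RPKM in B. napus, and U1A, a protein of the U1 particle that finds the start of introns, had 215.5 RPKM in B. carinata against 67.49 RPKM in B. napus. In the DNA methylation, histone enzyme and splicing groups the share of higher units was above the background, and that of lower units below it, in all 15 alternatives. For the histone enzymes the margin was small over sequences read in both species, with 7 of 59 (11.9%) higher beside 11.3% of all units.

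**Figure D4:**
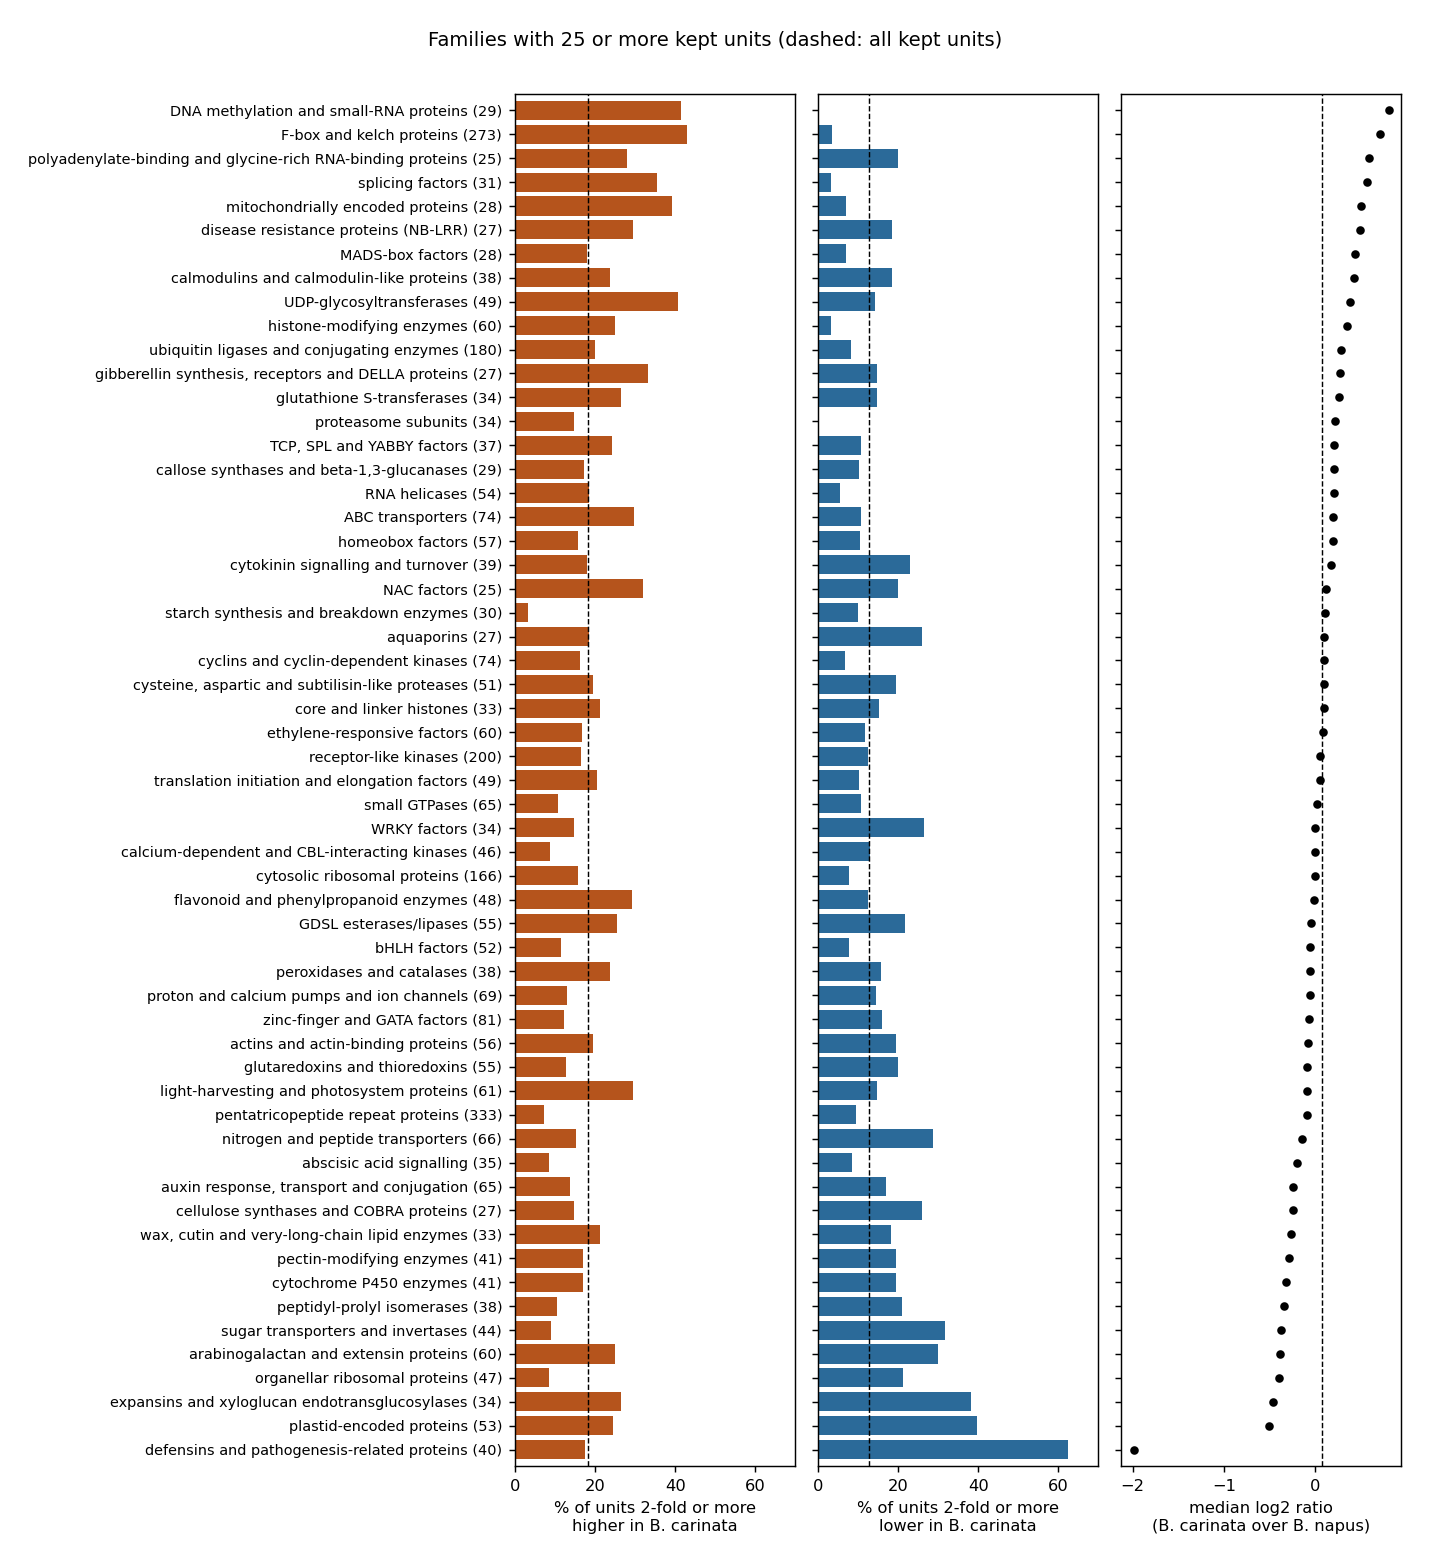
For each family with 25 or more kept units (number in brackets), the percentage of units at least 2-fold higher in B. carinata (left), at least 2-fold lower (middle) and the median log2 ratio (right), with dashed lines at the values of all 8460 units. F-box proteins and the DNA methylation group pass the dashed line by most among the higher shares, and the defensin group does so among the lower shares.

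Defensins and pathogenesis-related proteins leaned to B. napus, with the highest share of lower units and the lowest median of the 82 families described. This group of 40 units was matched by name, and holds defensin-like proteins beside small secreted proteins against microbes. Of its units, 25 (62.5%) were lower in B. carinata and 7 (17.5%) higher, with a median log2 ratio of -1.99. The share of lower units was above the background in all 15 alternatives. At1g75040, the thaumatin-like protein PR5, had 512.2 RPKM in B. carinata against 2584 RPKM in B. napus, or 0.186 times the reads per library total (interval 0.183 to 0.19). ATTI6, a defensin-like trypsin inhibitor, had 893 RPKM in B. carinata against 4367 RPKM in B. napus. AFP2, an antifungal defensin first named in radish, had 3.348 RPKM in B. carinata against 142.5 RPKM in B. napus. At2g14610, the salicylic acid marker PR1, had 9.24 RPKM in B. carinata against 36.37 RPKM in B. napus.

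Within that group a second set bears the name SCRL, for likeness to SCR, the pollen ligand of Brassica self-incompatibility. SCRL23 had 0.1112 RPKM in B. carinata against 190.5 RPKM in B. napus, and SCRL12 had 0.382 RPKM in B. carinata against 81.79 RPKM in B. napus. LCR1, another cysteine-rich defensin-like protein, had no read in B. carinata against 60.35 RPKM in B. napus. Of the defensins named PDF2, PDF2.2 as given above and PDF2.4, at 545.1 RPKM in B. carinata against 69.53 RPKM in B. napus, were higher, and PDF2.3 was level, at 942.6 RPKM in B. carinata against 871.6 RPKM in B. napus. Because PDF2.2 is so abundant, the summed level of the group was less uneven than its counts, with 9752 RPKM in B. carinata against 12770 RPKM in B. napus. Over the 35 entries named defensin-like protein, PDF2.2 and SCRL23 among them, the sum was 7435 RPKM in B. carinata against 7437 RPKM in B. napus.

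**Figure D5:**
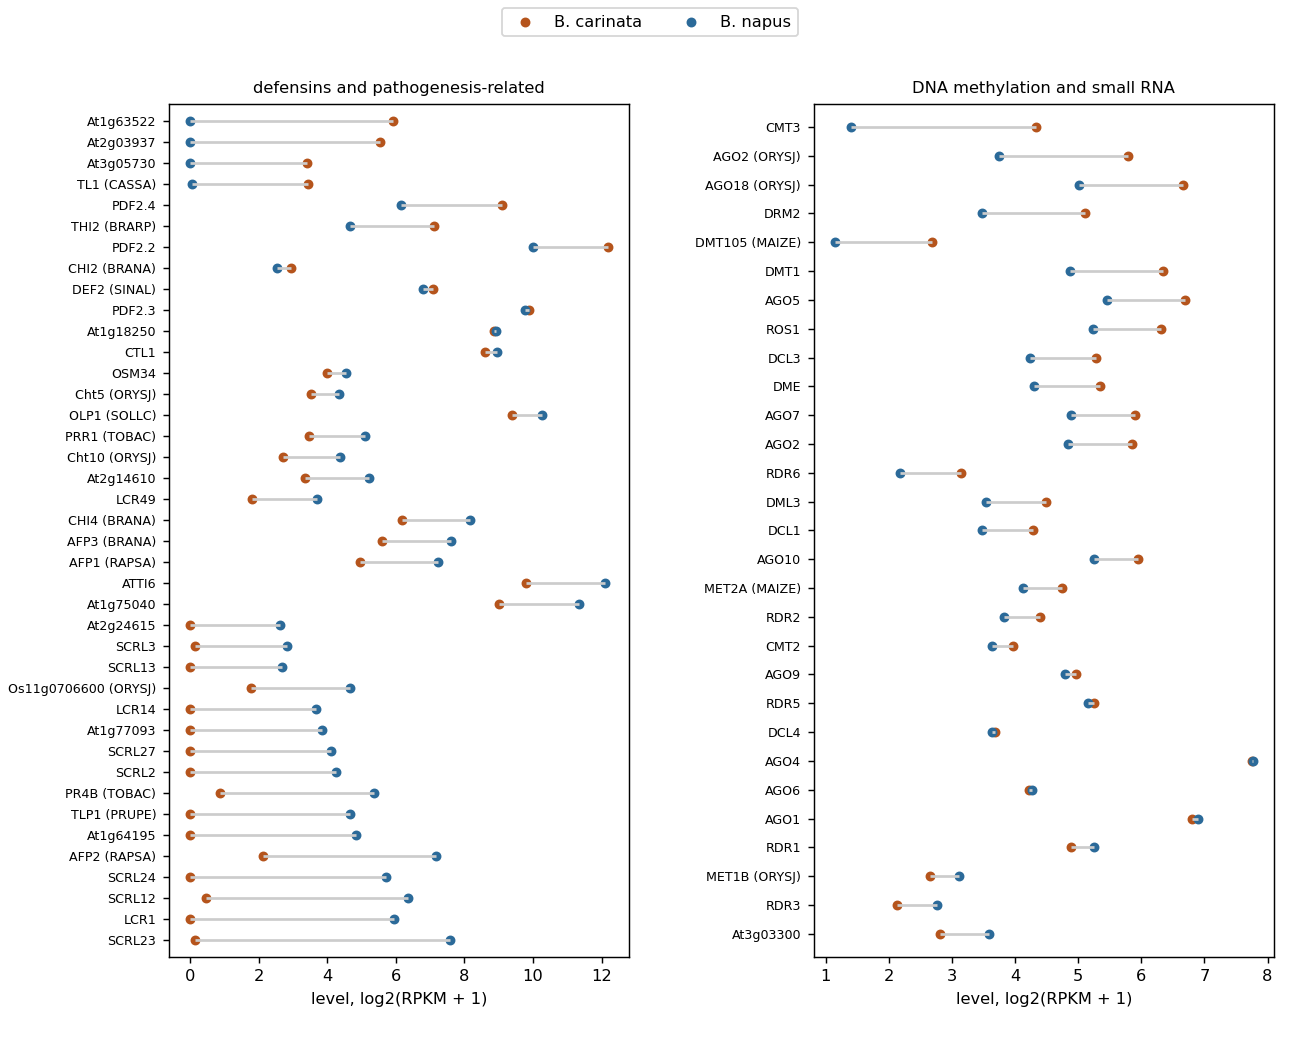
Levels (log2 of RPKM plus 1) in B. carinata (orange) and B. napus (blue) of every kept unit among defensins and pathogenesis-related proteins (left) and among proteins of DNA methylation and small RNAs (right), ordered by ratio. On the left 25 of 40 units are lower in B. carinata by 2-fold or more, on the right 12 of 29 are higher and none is lower by that line.

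Stress proteins other than these were mixed. Heat stress transcription factors had 7 of 15 units higher in B. carinata and 2 lower. Over sequences read in both species they had 2 of 13 (15.4%) higher and 3 (23.1%) lower, beside 11.3% and 17.2% of all units. Of their B. carinata reads, 44.4% lay on sequences read in B. carinata only. HSFA4A, the most abundant, had 264 RPKM in B. carinata against 87.9 RPKM in B. napus. Chaperones of the HSP70 and HSP90 types had 6 of 20 higher and 1 lower. The entry HSP90-1, the heat-inducible form, had 52.9 RPKM in B. carinata against no read in B. napus. By reads this entry was at least 401-fold higher. All 20 units of these chaperones summed to 4949 RPKM in B. carinata against 3536 RPKM in B. napus, within 2-fold. Metallothioneins had 7 of 10 units higher and 1 lower, with a median log2 ratio of 2.99. Their summed level lay the other way, at 5539 RPKM in B. carinata against 8453 RPKM in B. napus with the abundant MT2 lower. Over sequences read in both species 3 of 6 metallothionein units were higher and 2 (33.3%) lower, with a median log2 ratio of 0.98. Dehydrins and late embryogenesis proteins had 4 of 12 lower and 2 higher, peptidyl-prolyl isomerases 8 of 38 lower and 4 higher, and glutathione S-transferases 9 of 34 higher and 5 lower. These balances turned in 2, 1 and 2 alternatives in that order.

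Among transcription factors the LOB domain proteins, which mark organ boundaries, leaned most to B. carinata, with 9 of 16 units higher and 3 lower. Over sequences read in both species 6 of 16 (37.5%) were higher and 4 (25%) lower, beside 11.3% and 17.2% of all units. Of their B. carinata reads, 32.4% lay on sequences read in B. carinata only. LBD6, known as AS2 for its part in leaf polarity, had 32.22 RPKM in B. carinata against 1.912 RPKM in B. napus, or 18.3 times the reads per library total (interval 13.6 to 25.1). LBD28 had 29.97 RPKM in B. carinata against 0.365 RPKM in B. napus. LBD27, known from Arabidopsis microspore division, was lower, with 9.211 RPKM in B. carinata against 26.82 RPKM in B. napus. MADS-box factors had 5 of 28 higher and 2 lower, but 1 of 19 higher and 2 lower with the filter at 20 RPKM. AGL3, a member of the SEPALLATA clade, had 149 RPKM in B. carinata against 28.11 RPKM in B. napus. AGL5, which patterns the fruit valve margin, had 3.116 RPKM in B. carinata against 27.84 RPKM in B. napus. FLC, a repressor of flowering, had 16.36 RPKM in B. carinata against 4.072 RPKM in B. napus, whereas SVP, its partner, had 6.753 RPKM in B. carinata against 29.95 RPKM in B. napus.

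Some families of factors held more lower units than the background. MYB factors had 6 of 19 (31.6%) lower and 1 higher, and WRKY factors 9 of 34 (26.5%) lower and 5 higher. With no filter on low values MYB factors had 7 of 32 (21.9%) each way, beside 19.7% of all units higher and 12.9% lower. Under TMM factors WRKY factors had 7 of 34 (20.6%) each way, beside 24.6% of all units higher and 9.0% lower. Others were nearer the background, bHLH factors with 6 of 52 higher and 4 lower, which turned in 5 alternatives, and ethylene-responsive factors with 10 of 60 higher and 7 lower, which turned in 2. WRKY31 had 0.1424 RPKM in B. carinata against 22.76 RPKM in B. napus. NAC factors had 8 of 25 (32%) higher and 5 lower, but 3 of 20 higher and 7 lower over sequences read in both species. Homeobox factors had 9 of 57 higher and 6 lower, which turned in 4 alternatives, and STM, which keeps the shoot meristem undifferentiated, had 14.45 RPKM in B. carinata against no read in B. napus under its Arabidopsis entry. Under its B. oleracea entry STM had 26.2 RPKM in B. carinata against 62.76 RPKM in B. napus, the opposite direction.

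Among hormone groups, of 27 units for gibberellin, 9 were higher in B. carinata and 4 lower. The DELLA proteins, which hold back gibberellin responses, included GAI at 40.54 RPKM in B. carinata against 5.058 RPKM in B. napus and RGL2 at 31.61 RPKM in B. carinata against 7.243 RPKM in B. napus. The synthesis enzyme GA4 was lower, with 6.301 RPKM in B. carinata against 16.88 RPKM in B. napus. Cytokinin units had 7 of 39 higher and 9 lower, which turned in 3 alternatives, with ARR7, a response regulator that dampens the signal, at 5.354 RPKM in B. carinata against 63.26 RPKM in B. napus. Ethylene synthesis and reception had 7 of 21 lower and 5 higher, auxin 11 of 65 lower and 9 higher (turned in 2), and abscisic acid 3 of 35 each way. Jasmonate had 3 of 24 lower and 2 higher, and brassinosteroids 1 of 11 lower and none higher (turned in 4).

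Transport of sugars leaned to B. napus, with 14 of 44 transporters and invertases (31.8%) lower in B. carinata and 4 (9.09%) higher. The share of lower units was above the background in all 15 alternatives. CWINV4, a cell wall invertase that splits sucrose in Arabidopsis nectaries, had 6.417 RPKM in B. carinata against 59.95 RPKM in B. napus. SWEET10, a sugar exporter, had 21.64 RPKM in B. carinata against 73.47 RPKM in B. napus, and SUC2, which loads sucrose into the phloem, had 43.28 RPKM in B. carinata against 99.35 RPKM in B. napus. SWEET5 was the clearest exception, with 45.32 RPKM in B. carinata against 4.81 RPKM in B. napus. Nitrogen and peptide transporters had 19 of 66 lower and 10 higher. Under median-of-ratios factors the counts turned, with 12 of 68 (17.6%) lower and 14 higher. Under those factors the lower share stayed above the 8.77% of all units, and the higher share below that of all units. The median log2 ratio of these transporters stayed below that of all units in all 15 alternatives. ABC transporters had 22 of 74 higher and 8 lower by RPKM, but 7 of 75 each way by summed RPM, so that lean did not hold. Aquaporins had 7 of 27 lower and 5 higher, and pumps and channels 10 of 69 lower and 9 higher, which turned in 2 and in 4 alternatives.

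Wall and surface proteins were uneven in both directions. Expansins and xyloglucan endotransglucosylases, which loosen growing walls, had 13 of 34 (38.2%) lower in B. carinata and 9 (26.5%) higher. XTH3 had 2.679 RPKM in B. carinata against 118.1 RPKM in B. napus. Arabinogalactan proteins and extensins had 18 of 60 lower and 15 higher, a balance that turned in 3 alternatives. PERK2, a proline-rich receptor kinase, was one of the higher units, with 1923 RPKM in B. carinata against 36.47 RPKM in B. napus, or 61.0 times the reads per library total (interval 58.0 to 64.2). Pectin-modifying enzymes outside the late pollen genes had 8 of 41 lower and 7 higher, which turned in 4. Lipid-transfer proteins had 6 of 17 lower and 5 higher, which also turned in 4, and summed to 21490 RPKM in B. carinata against 20220 RPKM in B. napus.

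In specialised metabolism, glycosyltransferases stood out. These enzymes attach sugars to flavonoids, hormones and other small molecules, and 20 of 49 (40.8%) were higher in B. carinata and 7 (14.3%) lower, with a share of higher units above the background in all 15 alternatives. UGT72E3, which acts on lignin precursors, had 19.29 RPKM in B. carinata against 0.1708 RPKM in B. napus. Flavonoid and phenylpropanoid enzymes had 14 of 48 higher and 6 lower, but a median log2 ratio of -0.007, below the 0.07 of all units. Glucosinolate synthesis had 2 of 12 each way, and glucosinolate breakdown 5 of 13 higher and 2 lower, which turned in 2 alternatives. The median log2 ratio of glucosinolate breakdown was -0.22, and it stayed below that of all units in all 15 alternatives. NSP1, which turns glucosinolate products to nitriles, had 0.1433 RPKM in B. carinata against 42.8 RPKM in B. napus. Purple acid phosphatases had 6 of 21 higher and 2 lower, with PAP24 at 161.6 RPKM in B. carinata against 13.4 RPKM in B. napus.

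S-locus glycoproteins and S-domain kinases, the family of the female side of self-incompatibility, had 9 of 18 units lower in B. carinata and 3 higher. From the sequence of highest mean per unit the direction turned, with 6 of 12 higher and 5 lower. Under TMM factors 4 of 19 (21.1%) were higher and 6 (31.6%) lower, beside 24.6% and 9.0% of all units. The stigma glycoprotein SLSG of 1 B. oleracea entry had 0.9521 RPKM in B. carinata against 69.34 RPKM in B. napus, and that of another entry 9.375 RPKM in B. carinata against 65.42 RPKM in B. napus. These entries belong to alleles that differ widely in sequence, and whether the values follow the alleles that the assembly held was not tested. Receptor kinases at large were near the background, with 33 of 200 higher and 25 lower, which turned in 3 alternatives. Disease resistance proteins of the NB-LRR type had 8 of 27 higher and 5 lower, but with the filter at 20 RPKM none of 8 higher and 4 lower.

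Large groups that build protein and process organelle RNA were among the more even. Pentatricopeptide repeat proteins, which edit and splice organelle RNA, had 24 of 333 units (7.21%) higher in B. carinata and 32 (9.61%) lower, both below the background, and the balance turned in 4 alternatives. Cytosolic ribosomal proteins had 26 of 166 higher and 13 lower, which turned in 3, a median log2 ratio of -0.002 and sums of 108300 RPKM in B. carinata against 114000 RPKM in B. napus. Small GTPases had 7 of 65 each way, starch enzymes 1 of 30 higher and 3 lower (turned in 2), and calcium-dependent kinases 4 of 46 higher and 6 lower (turned in 3). Nuclear photosystem and light-harvesting proteins had 18 of 61 higher and 9 lower by summed RPKM, but 7 of 48 higher and 9 lower with the filter at 20 RPKM and 6 of 48 higher and 13 lower over sequences read in both species. Their levels summed to 12730 RPKM in B. carinata against 14300 RPKM in B. napus. Units that fell in no family numbered 4606, of which 756 were higher and 513 lower.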

How the data were processed

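Total RNA of floral buds was extracted with Trizol, treated with DNase I and sequenced on an Illumina HiSeq 2000, per the labels' protocols and the design text. No source used here names the assembler, aligner or counter. The authors deposited, for each assembled sequence, a raw read count and an RPKM value with its best matches, per the file headers. The deposited RPKM equalled count per kilobase and per 1000000 of the library total for 100% of values (tolerance 0.0005).

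Of 157663 sequences, 81150 had a Swiss-Prot entry, and 63739 had a Swiss-Prot score of at least 0.6 of their score against Nr, the NCBI protein collection. Counts and RPKM were summed over sequences sharing an entry, and units with 5 RPKM or more in either species were kept. Ratios are log2 of RPKM plus 1. Intervals are exact conditional binomial intervals at 95% on reads per library total, and cover counting error only. With 1 library per species no test was run. The 52 kept units of pollen wall and late pollen genes count in the totals over all units and were left out of families and naming.

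The members and lists were chosen with earlier results of these data known. Word patterns of the 82 families were corrected after seeing which descriptions they matched, the 2 organelle families were added, and the pollen list was adjusted after values were seen. Named units are the 12 highest and 12 lowest ratios with a named product, 20 RPKM or more and the same 2-fold direction by reads, the 10 most abundant units, and in each family the 3 largest ratios in size and the most abundant unit. Other members named for their role were chosen after their values were seen. Of 15 alternatives, 3 were added after seeing the data. Calculations used Python 3.11.15 with numpy 2.4.6, pandas 2.3.3 and SciPy 1.17.1. TMM factors were taken from edgeR 4.0.16 (R 4.3.3), with no edgeR test. The scripts were tested on simulated data.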

Additional observations from a re-analysis of the deposited data

How the results depend on the processing

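No paired analysis was possible because each species has 1 library, and for the same reason no replicate could be left out. Of the 2628 units apart, the share that was higher, 58.9% by RPKM, was 60.8% with 5 RPKM added, 73.2% with TMM factors, 74% with median-of-ratios factors, 50.1% with summed RPM, 51.9% over sequences of 500 bases or more and 62.8% with entries of 1 product name summed. It turned to 46.6% from the sequence of highest mean per unit, where 2153 units were higher and 2472 lower, 4625 in all, and to 39.6% over sequences read in both species, where 885 were higher and 1350 lower. The filter at 20 RPKM left 1499 units apart (878 higher, 621 lower), and summing by product name left 1257 (789 higher, 468 lower). That name was cut at its last number or letter, so the setting also joined some different proteins, for example 36 entries named 60S ribosomal protein. TMM moved the median log2 ratio of all units to 0.35 and median of ratios to 0.37, from 0.07. Family leans were read relative to that median. Leans of F-box, DNA methylation, histone-modifying, splicing, defensin and sugar transport families against it kept their side in all 15 alternatives. The median of S-locus proteins turned to the other side in 1, the sequence of highest mean per unit (0.53), and those of ABC transporters and MADS-box factors in 2 each. The cause of these shifts was not tested. At this depth a unit with 0 reads is only below 0.107 RPM in B. carinata or 0.106 in B. napus.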

Other observations

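A pair of gene lists was put together after the values had been seen and is given as a description only. Genes of the secondary cell wall, the thick wall laid down in anther endothecium, fibres and vessels, were mostly lower in B. carinata. Of 22 kept units, 14 (63.6%) were 2-fold or more lower and 1 (4.55%) higher, beside 12.8% and 18.3% of all units, with a median log2 ratio of -1.19. MYB46, a switch for the whole programme, had 0.2616 RPKM in B. carinata against 16.11 RPKM in B. napus. NAC066, a factor that acts before it, had 0.4449 RPKM in B. carinata against 11.04 RPKM in B. napus. The 3 cellulose synthases of this wall were CESA4 at 4.335 RPKM in B. carinata against 9.731 RPKM in B. napus, CESA7 at 2.921 RPKM in B. carinata against 18.47 RPKM in B. napus, and CESA8 at 8.411 RPKM in B. carinata against 13.8 RPKM in B. napus. The xylan synthesis gene IRX9 had 0.1157 RPKM in B. carinata against 11.09 RPKM in B. napus, and IRX12, a laccase of lignin formation, had 5.086 RPKM in B. carinata against 33.47 RPKM in B. napus. IRX14 lay the other way, at 17.4 RPKM in B. carinata against 5.963 RPKM in B. napus. With summed RPM 13 of 21 were lower and none higher. The mature pollen markers, also lower in B. carinata, moved with this list, and their part in it was not tested.

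The list of genes of meristems, organ boundaries and organ polarity leaned the other way, though not every member did. Of 26 kept units, 9 (34.6%) passed the 2-fold line upward in B. carinata and none lower, with a median log2 ratio of 0.76. YAB3, a factor of the lower organ face, had 55.67 RPKM in B. carinata against 1.858 RPKM in B. napus. KNU, which ends the activity of the floral meristem, had 9.287 RPKM in B. carinata against 0.0518 RPKM in B. napus. The boundary factors NAC054 (CUC1) had 19.28 RPKM in B. carinata against 6.187 RPKM in B. napus, and NAC098 (CUC2) 28.53 RPKM in B. carinata against 11.95 RPKM in B. napus. WUS, which maintains stem cells, was level at 11.1 RPKM in B. carinata against 12.58 RPKM in B. napus. KNAT1, of the same list, was lower within the 2-fold line, at 6.447 RPKM in B. carinata against 11.73 RPKM in B. napus. So was KNAT6, at 17.8 RPKM in B. carinata against 30.93 RPKM in B. napus. STM counts as higher here by its Arabidopsis entry, while its B. oleracea entry, not in the list, lay the opposite way. With summed RPM 5 of 25 were higher and none lower, and from the sequence of highest mean per unit 8 of 22 were higher and 3 lower.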
